A study of Mus musculus with 24 samples.

Results

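The response to zymosan was measured in dendritic cells (DCs) labelled knockout (KO) for IRE1α. DCs are the antigen-presenting sentinels of the immune system, and these were grown from mouse bone marrow. The response was taken as the 4 libraries of KO cells treated with zymosan against the 4 libraries of untreated KO cells, 8 of the 24 libraries of the series, over all 38887 genes of the deposited count table. The other groups used are KO cells treated with lipopolysaccharide (LPS), wild-type (WT) cells treated with zymosan and untreated WT cells, with 4 libraries each. The sample titles are worded as DCs from treated or untreated mice, and the treatment is taken here as given to the cells. The labels used here do not give the allele or the way IRE1α was deleted, nor the age of the mice, the dose of zymosan or the time of treatment. Nothing in them shows that replicates came from different mice or cultures. The p-values then measure only the spread between these libraries, which may be technical.

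Zymosan is a particle made from yeast cell wall. DCs bind its β-glucans through dectin-1, which signals through the kinase Syk and the adaptor CARD9, and its other components through the Toll-like receptor TLR2 paired with TLR1 or TLR6. Downstream, NF-κB factors switch on cytokine, chemokine and cyclooxygenase genes, and secreted type I interferon then induces the interferon-stimulated genes. IRE1α is a sensor of the endoplasmic reticulum (ER) membrane. Its RNase splices Xbp1 mRNA, whose product XBP1s drives genes of protein folding and secretion. The series title names prostaglandin synthesis. Prostaglandin E2 is made in steps: phospholipase A2 releases arachidonic acid, a cyclooxygenase converts it, and a prostaglandin E synthase finishes it.

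Total counts were 32223256 to 46927434 per library among the 8 KO libraries, and 14188 genes had enough counts to be tested. Levels are in CPM (counts scaled to the size of the library multiplied by its TMM scaling factor). They are not per length, so they compare libraries and not genes. The factors were 0.916 to 0.951 in zymosan-treated KO libraries and 1.14 to 1.17 in untreated ones. Replicates 1 and 2 of the KO groups resembled each other, as did 3 and 4. In zymosan-treated KO cells, counts of replicates 1 and 2 differed by a chi-square of 2.18 per gene and those of 3 and 4 by 5.68, against 13.1 to 16.4 across the pairs. In untreated KO cells the values were 3.10 and 6.12, against 13.8 to 22.9 across the pairs. For that reason each comparison was also made with the replicates of a pair summed. The general DC marker Itgax (CD11c) was at 1220, 1216, 1400 and 1400 CPM in zymosan-treated KO cells and 1171, 1192, 1311 and 1355 CPM in untreated KO cells. Macrophage and monocyte markers were also present, with a summed level of 5160 to 5950 CPM with zymosan and 4760 to 5510 CPM untreated.

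Ern1 (ENSMUSG00000020715, GRCm38 chr11:106394650-106487852, minus strand), which encodes IRE1α, was no lower with the KO label than with the WT label. Untreated libraries labelled KO had 53.4, 54.6, 48.2 and 49.6 CPM, against 42.3, 43.3, 40.5 and 40.2 CPM in untreated WT libraries. The counts cover the whole gene, so a deletion of part of it, or a loss of protein, would not show. The targets of XBP1s did set the labels apart: 35 of 38 were lower in untreated KO than in untreated WT cells, against 5.64% of all genes, and 36 of 38 were lower with zymosan, against 11.4% of all genes. Dnajb9, an ER co-chaperone and XBP1s target, had 8.11, 7.90, 11.0 and 8.97 CPM in untreated KO cells and 23.8, 23.5, 26.2 and 24.7 CPM in untreated WT cells, with no overlap. Within KO cells, zymosan lowered Ern1 mRNA to 39.2, 38.6, 36.2 and 35.6 CPM, a log2 fold change of -0.46 ± 0.05 (SE, n = 4 each, edgeR adjusted p = 1.07e-08).

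Zymosan changed most of the transcriptome of the KO cells. Of 14188 genes, 9477 (66.8%) were called, by edgeR's quasi-likelihood test with a threshold of 0.05 on the Benjamini-Hochberg adjusted p. The calls were 4487 higher (31.6%) and 4990 lower (35.2%) with zymosan. Past a 2-fold change there were 1210 higher genes (8.53%) and 852 lower genes (6.01%). The median log2 fold change over all tested genes was -0.03. With so many genes called, a gene list is read below against those shares and that median. The median also depends on the scaling factors, which differed between treated and untreated libraries. In such bulk libraries, a change in the number of cells of a type and a change in RNA per cell cannot be told apart. The 8 largest rises among genes of at least 5 CPM on average, with no overlap of the groups, were Il12b, Cxcl10, Il6, Iigp1, Ptgs2, Oasl1, Cxcl1 and Ifit2. They are cytokine, chemokine and interferon-induced genes and a cyclooxygenase, and each is described with its group.

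**Figure D1:**
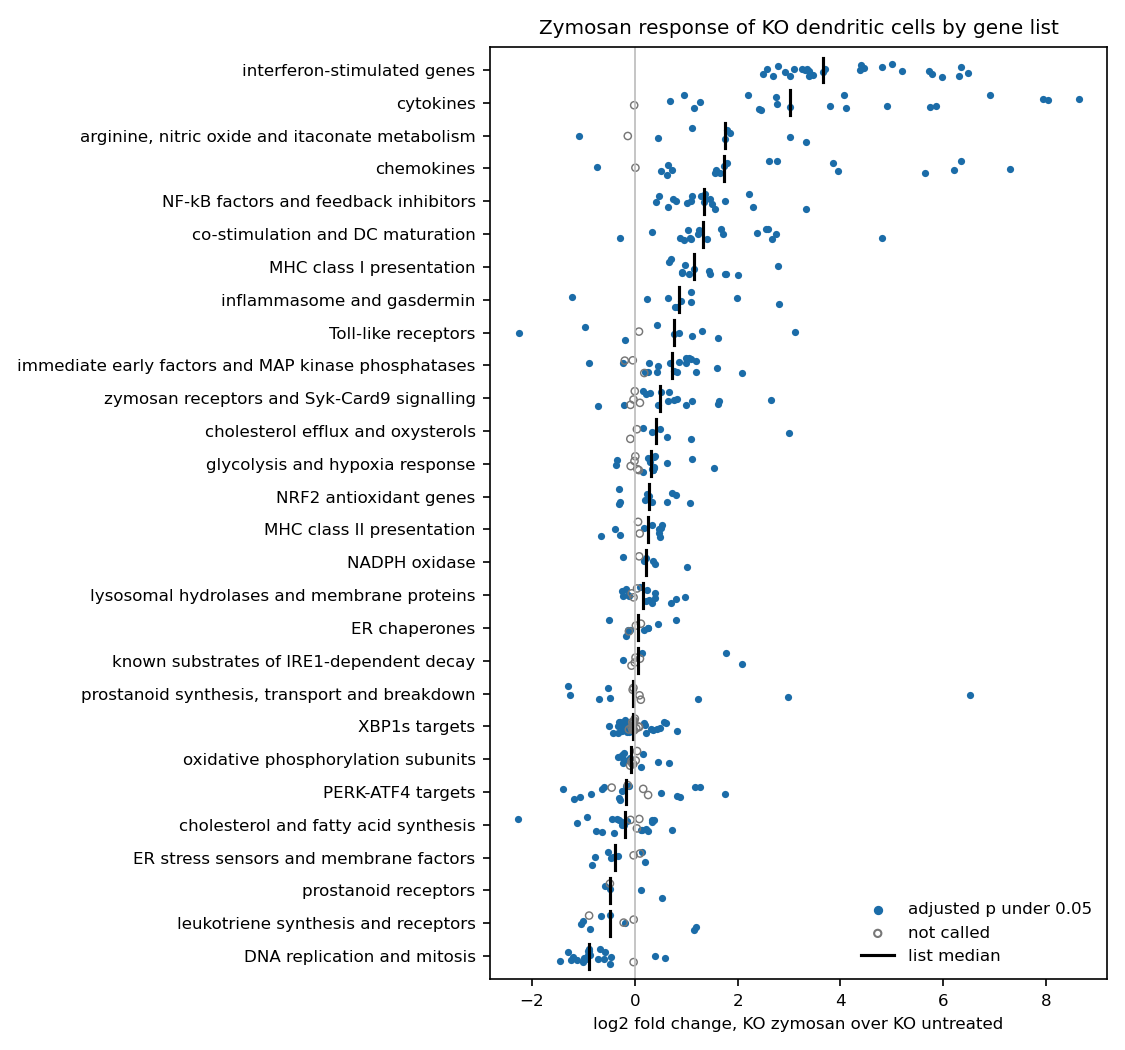
Log2 fold change of KO zymosan over KO untreated for each tested gene (point) of 28 gene lists, ordered by list median (black bar). Filled points were called. Interferon-stimulated genes (median 3.67) and cytokines (median 3.02) lie far to the right, and genes of DNA replication and mitosis (median -0.89) lie lowest.

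For each step of prostaglandin E2 synthesis a gene rose (Pla2g4a, Ptgs2 and Ptges), and the constitutive cyclooxygenase gene Ptgs1 fell. Ptgs2 (GRCm38 chr1:150100031-150108227, plus strand), the inducible cyclooxygenase COX-2, had 1174, 1185, 1414 and 1193 CPM in zymosan-treated KO cells and 12.3, 11.1, 16.9 and 14.3 CPM in untreated KO cells. Replicate 3 stood above the other zymosan-treated libraries, and all lay far above the untreated ones, a 91.2-fold rise (log2 6.51 ± 0.13, SE, edgeR adjusted p = 8e-23). Ptges (chr2:30889471-30929863, minus strand), the inducible microsomal prostaglandin E synthase, had 99.95, 98.0, 79.8 and 78.3 CPM with zymosan and 11.7, 11.2, 10.53 and 11.5 CPM untreated. The groups did not overlap, and replicates 1 and 2 were the higher pair among the treated libraries; the rise was 7.92-fold (log2 2.99 ± 0.08, edgeR adjusted p = 9.69e-21). Pla2g4a (chr1:149829618-149961290, minus strand), the cytosolic phospholipase A2, had 118, 121, 132 and 117 CPM with zymosan and 49.2, 50.1, 52.2 and 55.9 CPM untreated. It rose 2.35-fold with no overlap (log2 1.23 ± 0.06, edgeR adjusted p = 1.48e-15). Ptgs1 (chr2:36230426-36252272, plus strand), the constitutive cyclooxygenase COX-1, had 102, 104, 85.6 and 84.9 CPM with zymosan and 241, 241, 221 and 221 CPM untreated. Every treated library lay below every untreated one, a 2.46-fold fall (log2 -1.30 ± 0.06, edgeR adjusted p = 4.83e-15).

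Of 12 tested genes of prostanoid synthesis, transport and breakdown, those above included, 3 rose and 5 fell, with a median log2 fold change of -0.03. The risen genes were Ptgs2, Ptges and Pla2g4a, and beside Ptgs1 the fallen genes were Tbxas1, Ptgis, Abcc4 and Cbr1. Tbxas1, which makes thromboxane, fell 1.62-fold, with 133 to 139 CPM in treated and 214 to 221 CPM in untreated KO cells. Among receptors, 5 were tested, 2 rose and 2 fell; the count of risen receptors was 1 with pairs of replicates summed. Ptger4, the prostaglandin E2 receptor EP4, rose 1.44-fold, with 43.1 to 47.7 CPM in treated and 29.8 to 32.4 CPM in untreated KO cells. Of the other E2 receptors, Ptger1 (EP1) fell 1.49-fold and Ptger2 (EP2) fell 1.40-fold, while Ptger3 (EP3), at 0.136 to 0.479 CPM in treated and 0.391 to 0.511 CPM in untreated KO cells, was not called (log2 -0.48 ± 0.25, edgeR adjusted p = 0.0956). In the neighbouring leukotriene pathway 6 of 11 genes fell and 2 rose, beside 35.2% and 31.6% of all genes. Alox5, the 5-lipoxygenase that starts leukotriene synthesis, had 42.4, 39.7, 32.6 and 31.5 CPM with zymosan and 81.8, 82.1, 69.4 and 70.8 CPM untreated, a 2.08-fold fall. Cysltr2, a receptor for cysteinyl leukotrienes, rose 2.22-fold at 2.27 to 3.08 CPM with zymosan and 1.13 to 1.56 CPM untreated.

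**Figure D2:**
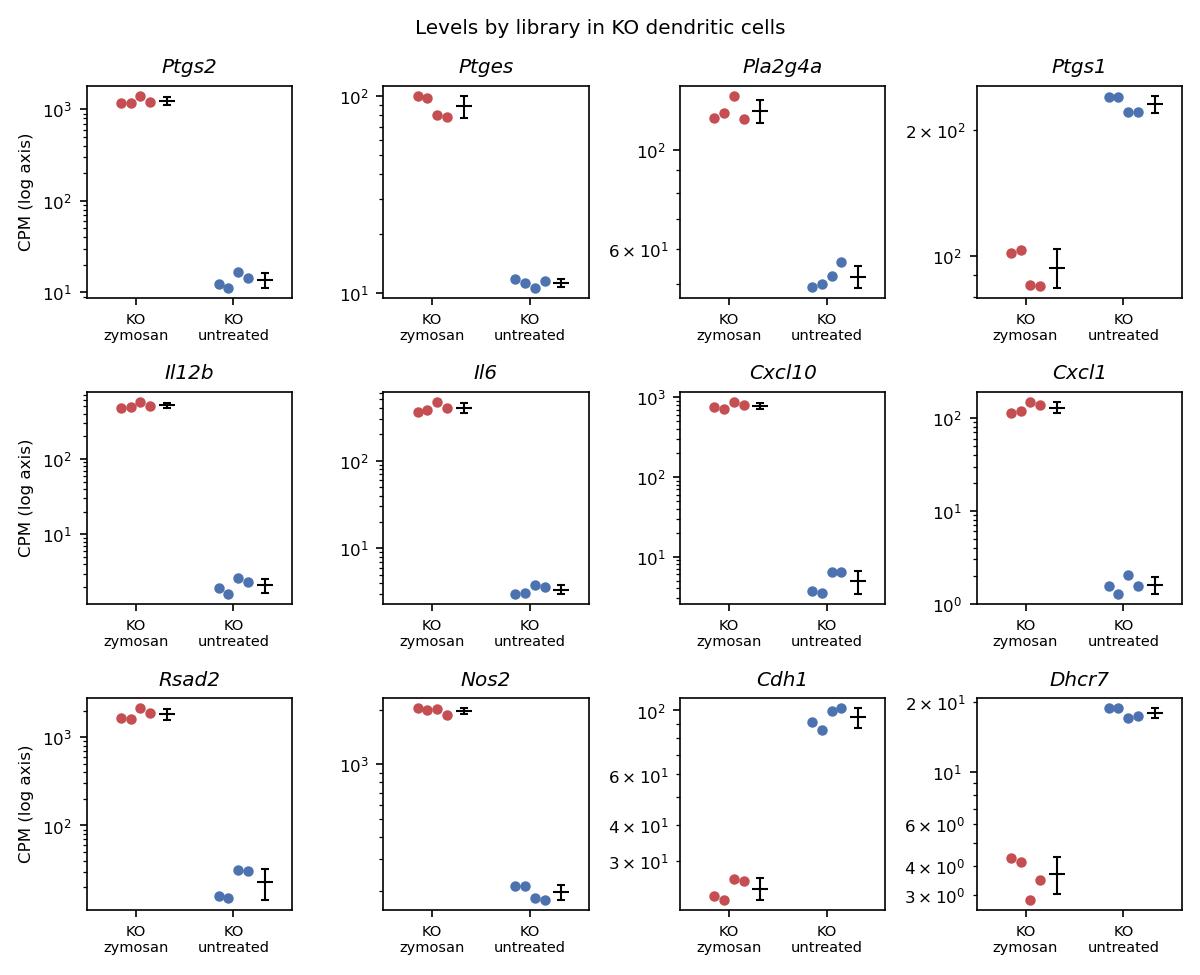
CPM (log axis) in each KO library for 12 named genes, treated libraries left of untreated ones, with mean and SD in black to the right of the points. The groups are apart in every panel; Ptgs1, Cdh1 and Dhcr7 are the panels in which the zymosan-treated libraries lie lower.

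The receptors and early signalling genes of the zymosan response were themselves mostly raised. Of 20 such genes 14 rose and 2 fell, with a median log2 fold change of 0.48. Clec4e (Mincle, a C-type lectin receptor for fungal glycolipids) rose 6.24-fold, with 1326, 1354, 1592 and 1453 CPM in treated and 211, 208, 248 and 250 CPM in untreated KO cells. Cd14, the co-receptor for bacterial and yeast ligands, rose 3.11-fold, and Tlr1, the partner of TLR2, rose 3.07-fold (25.6 to 28.2 CPM with zymosan, 8.59 to 9.42 CPM untreated). Tlr2 rose 2.17-fold (log2 1.12 ± 0.07). Clec7a, which encodes dectin-1, had 732, 753, 1044 and 1003 CPM with zymosan and 539, 547, 717 and 787 CPM untreated. The groups overlapped, and replicates 3 and 4 were the higher pair in each state. The fold was 1.36 (log2 0.45 ± 0.12, edgeR adjusted p = 0.00158). Downstream of dectin-1, the kinase gene Syk rose 1.57-fold while the adaptor gene Card9 fell 1.63-fold, with 31.3 to 35.3 CPM in treated and 51.7 to 57.1 CPM in untreated KO cells. Among 11 Toll-like receptors 7 rose and 3 fell. Tlr3, the sensor of double-stranded RNA, rose 8.68-fold, with 24.7, 23.95, 37.4 and 33.1 CPM in treated and 3.15, 3.19, 3.62 and 3.71 CPM in untreated KO cells. Tlr5, the flagellin receptor, was counted only 10 times over the 4 treated libraries and 68 times over the untreated ones. That is a ratio of 0.165 (95% interval of the counting error alone 0.0759 to 0.323). This ratio, and those of Il10 and Ifnb1 below, were scaled to total counts only, without the TMM factors used for all other fold changes.

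Cytokine genes rose almost as a whole. Of 21 tested, 20 rose and none fell, against 31.6% of all genes called higher, and the median log2 fold change was 3.02. Il12b, the p40 subunit shared by interleukins 12 and 23, had 482, 491, 579 and 513 CPM with zymosan and 1.93, 1.59, 2.60 and 2.35 CPM untreated. This 244-fold rise (log2 7.93 ± 0.11, edgeR adjusted p = 2.45e-25) was the largest among genes with an average of at least 5 CPM. Its partners rose too: Il12a (p35) rose 58.3-fold, with 16.9 to 19.4 CPM in treated and 0.256 to 0.407 CPM in untreated KO cells. Il23a (p19) rose 53.7-fold, with 18.6 to 23.1 CPM in treated and 0.317 to 0.475 CPM in untreated KO cells. Il6, a driver of the acute phase response, had 360, 378, 472 and 399 CPM with zymosan and 3.01, 3.05, 3.78 and 3.63 CPM untreated, a 119-fold rise with no overlap. Genes for the early inflammatory cytokines were already present at rest. Tnf had 1455 to 1620 CPM with zymosan and 203 to 249 CPM untreated (6.84-fold), and Il1b had 4308 to 4713 CPM with zymosan and 309 to 335 CPM untreated (13.9-fold). Il10, an anti-inflammatory cytokine, was close to silent at rest: it was counted 1056 times over the treated libraries and 5 times over the untreated ones, a ratio of 237 (95% counting interval 101 to 733). Ifnb1, interferon β, was counted 172 times in the treated libraries and not at all in the untreated ones, at least 64.4-fold higher when the untreated group is set at 3 counts.

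Chemokine genes followed, with 17 of 19 tested genes higher, 1 lower and a median log2 fold change of 1.74. Cxcl10, which attracts activated T cells through CXCR3, had 746, 720, 882 and 797 CPM with zymosan and 3.67, 3.50, 6.42 and 6.43 CPM untreated. The groups lay far apart at 157-fold (log2 7.30 ± 0.26, edgeR adjusted p = 4.13e-18), although the untreated replicates 3 and 4 were above 1 and 2. Cxcl11, a further CXCR3 ligand, rose 73.5-fold, with 8.35 to 11.1 CPM in treated and 0.0786 to 0.186 CPM in untreated KO cells. Cxcl1, which attracts neutrophils, had 112, 118, 150 and 139 CPM with zymosan and 1.54, 1.26, 2.06 and 1.55 CPM untreated, an 81.7-fold rise. The promoters of 3 of these strongly raised genes are shown because they hold motifs of the factors named above. The windows run from 250 bases before to 50 bases after the RefSeq start site, on the gene's own strand (GRCm38.p6), and capitals mark matches to the κB motif (GGG, any 3 bases, then TTCC) or, in Cxcl10, also to the interferon-stimulated response element (ISRE; GAAA, any 2 bases, then GAAA), searched on both strands. They are Cxcl10 at chr5:92348840-92349139 (minus strand), Cxcl1 at chr5:90890995-90891294 (plus strand) and Il6 at chr5:30012864-30013163 (plus strand).
Cxcl10: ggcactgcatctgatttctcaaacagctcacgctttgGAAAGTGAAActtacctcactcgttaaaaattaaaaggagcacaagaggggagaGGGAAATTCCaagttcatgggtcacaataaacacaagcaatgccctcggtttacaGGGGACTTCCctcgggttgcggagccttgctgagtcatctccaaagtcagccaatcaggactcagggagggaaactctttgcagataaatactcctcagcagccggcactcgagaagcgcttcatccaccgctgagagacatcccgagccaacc
Cxcl1: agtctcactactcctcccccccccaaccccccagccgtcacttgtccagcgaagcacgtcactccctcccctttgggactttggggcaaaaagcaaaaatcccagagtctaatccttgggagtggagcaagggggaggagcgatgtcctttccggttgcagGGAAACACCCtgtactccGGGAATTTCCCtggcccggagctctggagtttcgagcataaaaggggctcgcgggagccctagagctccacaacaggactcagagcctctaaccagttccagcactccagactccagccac
Il6: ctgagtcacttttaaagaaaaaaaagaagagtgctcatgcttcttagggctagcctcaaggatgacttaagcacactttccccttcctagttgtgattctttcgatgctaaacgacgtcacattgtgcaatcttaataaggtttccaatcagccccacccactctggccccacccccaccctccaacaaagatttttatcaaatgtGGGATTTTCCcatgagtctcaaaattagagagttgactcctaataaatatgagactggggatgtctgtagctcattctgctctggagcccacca
In Cxcl10 the ISRE match starts 213 bases and the κB matches 159 and 104 bases before the start site. Cxcl1 has overlapping κB matches, 1 on each strand, at 71 and 70 bases, and a further match at 89 bases; the Il6 match lies at 44 bases. Such κB letters occur in the windows of 6 of 13 chemokine genes and 4 of 15 cytokine genes found in the table, and in 6.31% of all 27025 genes with a window. A match is a description of the letters and not evidence of binding.

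All 27 tested interferon-stimulated genes rose, with a median log2 fold change of 3.67 and a lowest of 2.50. Rsad2 (viperin, an antiviral enzyme) had 1669, 1601, 2159 and 1874 CPM with zymosan and 15.8, 14.96, 31.2 and 30.2 CPM untreated. Replicates 3 and 4 were the higher pair in each state, and the fold was 79.3 (log2 6.31 ± 0.26, edgeR adjusted p = 1.3e-16). Ifit2, which blocks translation of viral RNA, rose 81.3-fold, with 1143 to 1532 CPM in treated and 10.48 to 22.5 CPM in untreated KO cells. Oasl1, an oligoadenylate synthetase-like protein, rose 89.5-fold, with 318 to 375 CPM in treated and 2.71 to 5.68 CPM in untreated KO cells. The immunity-related GTPase gene Iigp1, outside the list, rose 96.7-fold, with 48.5, 46.1, 79.4 and 64.8 CPM in treated and 0.348, 0.531, 0.882 and 0.708 CPM in untreated KO cells. The Rsad2 promoter (GRCm38.p6 chr12:26456403-26456702, minus strand, from RefSeq) is shown with its ISRE in capitals, matched on the opposite strand and starting 120 bases before the start site.
Rsad2: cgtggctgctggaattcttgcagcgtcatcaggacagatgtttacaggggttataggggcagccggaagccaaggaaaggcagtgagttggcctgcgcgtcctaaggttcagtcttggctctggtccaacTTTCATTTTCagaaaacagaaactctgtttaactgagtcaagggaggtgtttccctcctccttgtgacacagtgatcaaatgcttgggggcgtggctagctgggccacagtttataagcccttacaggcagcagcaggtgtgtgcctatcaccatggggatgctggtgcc
ISRE letters were present in the windows of 12 of 21 interferon-stimulated genes with a window (57.14%), Rsad2, Isg15 and Ifih1 among them, and in 3.99% of all genes with a window. Gbp5 is counted among the 12, though it had no identifier in the count table and its response was not tested.

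NF-κB factors and feedback inhibitors rose in 19 of 19 cases, with a median log2 fold change of 1.35. Nfkbiz, the nuclear IκBζ that helps switch on secondary response genes, rose 9.99-fold, with 168 to 175 CPM in treated and 16.2 to 18.1 CPM in untreated KO cells. Socs3, an inhibitor of cytokine receptor signalling, rose 4.91-fold (698.5 to 767 CPM with zymosan, 143 to 152 CPM untreated). Zc3h12a, the RNase regnase-1 that degrades cytokine mRNAs, rose 4.65-fold. Of 22 immediate early factors and MAP kinase phosphatases, 17 rose and 2 fell (median log2 0.72). The orphan nuclear receptor gene Nr4a1 rose 4.22-fold, and the phosphatase genes Dusp2 and Dusp4 rose 3.04-fold and 2.30-fold. Myc, a growth-promoting transcription factor, was among the genes that fell: it had 20.2, 20.3, 19.9 and 20.9 CPM with zymosan and 38.2, 36.1, 37.2 and 38.3 CPM untreated, a 1.84-fold fall with no overlap.

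Genes by which DCs show antigen to T cells were raised, more evenly for class I than for class II. Co-stimulation and maturation genes rose in 17 of 18 cases (median log2 1.32). Cd40, the receptor through which T cells license DCs, had 176, 172, 207 and 201 CPM with zymosan and 6.08, 5.82, 7.82 and 7.25 CPM untreated, a 28.0-fold rise. Slamf1, a self-binding co-stimulatory receptor, rose 6.70-fold and Marcksl1, an actin-linked membrane protein, rose 6.32-fold. All 13 class I presentation genes rose (median log2 1.15). Nlrc5, the class I transactivator, led with 6.92-fold, then the peptide transporter Tap1 (4.00-fold) and the tapasin gene Tapbp (3.42-fold, 809 to 902 CPM with zymosan, 237 to 289 CPM untreated). Class II genes split, with 7 of 12 higher and 3 lower (median log2 0.26). H2-Aa, a class II chain, rose 1.43-fold (1717 to 1799 CPM with zymosan, 1215 to 1264 CPM untreated) and H2-Oa also rose 1.43-fold. H2-DMa, which helps load peptide on class II, fell 1.57-fold, with 104 to 117 CPM in treated and 163 to 179 CPM in untreated KO cells.

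Metabolic genes of activated myeloid cells rose, while genes of cell division fell. In arginine, nitric oxide and itaconate metabolism 7 of 9 genes rose and 1 fell (median log2 1.75). Nos2, the inducible nitric oxide synthase, had 2048, 1988, 2011 and 1874 CPM with zymosan and 214, 215, 183 and 179 CPM untreated, a 10-fold rise. Acod1, which makes itaconate, rose 8.14-fold (4030 to 4504 CPM with zymosan, 458 to 602 CPM untreated), and Arg2, the mitochondrial arginase, rose 3.59-fold. Glycolysis and hypoxia genes moved by less, with 13 of 20 higher and 2 lower (median log2 0.31). Hif1a, the hypoxia-inducible factor, rose 2.92-fold, Pfkfb3, an activator of glycolytic flux, 2.15-fold and Hk2, a hexokinase, 1.53-fold. Oxidative phosphorylation genes were mixed, with 4 of 18 higher and 8 lower; with pairs summed, 2 were higher and 5 lower. Cycs, cytochrome c, rose 1.59-fold, Uqcrfs1 of complex III rose 1.36-fold and Sdha of complex II fell 1.25-fold.

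Cholesterol and fatty acid synthesis leaned lower, with 13 of 24 genes down, 8 up and a median log2 fold change of -0.18. Of all genes, 35.2% were called lower and 31.6% higher, and the lean was not tested against those shares. Dhcr7, which performs the last step of cholesterol synthesis, had 4.32, 4.15, 2.85 and 3.46 CPM with zymosan and 18.7, 18.8, 17.0 and 17.4 CPM untreated. It fell 4.82-fold with no overlap (log2 -2.27 ± 0.09, edgeR adjusted p = 8.59e-17). Fasn, the fatty acid synthase, fell 2.17-fold and Scd1, a fatty acid desaturase, fell 1.92-fold. Of 8 genes of cholesterol efflux and oxysterols, 6 rose and none fell. Ch25h, which makes the antiviral oxysterol 25-hydroxycholesterol, had 38.9, 35.0, 55.7 and 59.1 CPM with zymosan and 5.28, 5.45, 6.22 and 6.49 CPM untreated, an 8.03-fold rise. The oxysterol receptor gene Nr1h3 (LXRα) rose 2.14-fold and Mylip, which degrades the LDL receptor, rose 1.55-fold.

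DNA replication and mitosis genes fell in 19 of 22 cases and rose in 2, against 35.2% of all genes called lower, with a median log2 fold change of -0.89. Rrm2, the ribonucleotide reductase subunit, had 6.81, 6.81, 4.95 and 6.68 CPM with zymosan and 16.3, 17.0, 17.3 and 18.9 CPM untreated, a 2.73-fold fall. Mcm2 of the replicative helicase fell 2.47-fold and Cdc20, an activator of the anaphase-promoting complex, fell 2.38-fold. Mki67, which encodes the proliferation antigen Ki-67, was an exception: it rose 1.31-fold, with 158 to 172 CPM in treated and 114 to 134 CPM in untreated KO cells. The largest falls among genes of at least 5 CPM on average, with no overlap of the groups, included Tpm2 (a tropomyosin, 5.17-fold), Deptor (an inhibitor of mTOR, 4.89-fold) and Fam198b (4.84-fold). After Dhcr7 came B3gnt7 (a glycosyltransferase, 4.08-fold), Pald1 (4.03-fold), Nrep (3.98-fold) and Cdh1 (3.93-fold). Cdh1, E-cadherin, which joins resting DCs to each other, had 22.8, 22.0, 26.0 and 25.7 CPM with zymosan and 90.9, 85.8, 99.6 and 102 CPM untreated.

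ER genes showed no common direction in KO cells. Of 38 XBP1s targets 10 rose, 15 fell and 13 were not called, with a median log2 fold change of -0.04, beside 31.6% and 35.2% of all genes. The highest were Hspa13 (an ER-associated Hsp70, 1.76-fold), Sec23b (a COPII coat subunit, 1.52-fold) and Srpr (the signal recognition particle receptor, 1.49-fold). Rpn1, a subunit of the oligosaccharyltransferase, fell 1.41-fold, and Hyou1, an ER chaperone, fell 1.22-fold. Dnajb9 had 5.73, 6.06, 7.45 and 7.70 CPM with zymosan and 8.11, 7.90, 11.0 and 8.97 CPM untreated, a 1.34-fold fall. Xbp1 itself (chr11:5520659-5525893, plus strand) had 209, 211, 202 and 194 CPM with zymosan and 268, 266, 252 and 242 CPM untreated, a 1.26-fold fall; whole-gene counts do not tell spliced from unspliced mRNA. Of 10 ER stress sensors and membrane factors 2 rose and 6 fell, and 1 rose with pairs summed. Eif2ak3, the stress kinase PERK, fell 1.77-fold (10.2 to 11.3 CPM with zymosan, 17.3 to 19.8 CPM untreated), and the membrane-bound factor Creb3l1 fell 1.44-fold. Of 21 targets of the PERK-ATF4 branch 6 rose and 11 fell. Nupr1, a stress-induced transcriptional regulator, rose 3.37-fold and the cystine transporter Slc7a11 rose 2.42-fold. Shmt2, a mitochondrial serine enzyme, fell 2.62-fold and the amino acid transporter Slc7a5 fell 2.28-fold.

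Among 12 ER chaperones 5 rose and 4 fell, and with pairs summed 1 fell. Hspa5 (BiP), the main Hsp70 of the ER, had 1569, 1608, 1875 and 1766 CPM with zymosan and 894, 914, 1023 and 1064 CPM untreated, a 1.75-fold rise with no overlap (log2 0.81 ± 0.07, edgeR adjusted p = 2.86e-10). Dnajc10, an ER reductase, rose 1.36-fold, and Ero1lb, an ER oxidase, fell 1.41-fold. The ER stress response element (ERSE; CCAAT, any 9 bases, then CCACG) is a site through which ATF6 and XBP1s act. It was in the windows of 4 of 8 chaperones and 4 of 29 XBP1s targets found in the table, and of 37 of 27025 genes (0.14%). The promoters of Hspa5 (GRCm38.p6 chr2:34771840-34772139, plus strand) and Creld2 (chr15:88819396-88819695, plus strand, match on the opposite strand) are shown from RefSeq with the element in capitals, since both carry it: Hspa5 rose and Creld2 was not called, and the difference between them was not tested.
Hspa5: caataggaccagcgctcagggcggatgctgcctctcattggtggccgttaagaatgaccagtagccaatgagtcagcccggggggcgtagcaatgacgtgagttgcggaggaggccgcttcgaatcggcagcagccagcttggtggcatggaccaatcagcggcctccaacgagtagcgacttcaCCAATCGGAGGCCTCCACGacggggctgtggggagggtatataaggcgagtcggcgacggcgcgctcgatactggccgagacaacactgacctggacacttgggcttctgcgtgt
Creld2: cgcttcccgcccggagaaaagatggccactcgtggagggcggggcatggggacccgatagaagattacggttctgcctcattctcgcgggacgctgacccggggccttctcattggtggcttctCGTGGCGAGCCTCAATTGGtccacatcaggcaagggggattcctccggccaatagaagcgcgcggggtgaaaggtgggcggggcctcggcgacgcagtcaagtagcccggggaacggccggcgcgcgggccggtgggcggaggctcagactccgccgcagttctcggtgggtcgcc
The match starts 65 bases before the start site in Hspa5 and 126 bases in Creld2. Creld2, an ER-resident factor, had 29.9, 30.0, 29.6 and 31.4 CPM with zymosan and 30.6, 31.8, 30.9 and 29.9 CPM untreated (log2 -0.03 ± 0.04, edgeR adjusted p = 0.591). Of the others that carry the element, Syvn1, an ER-associated degradation ligase, rose 1.16-fold. Dnajc3, a co-chaperone, fell 1.17-fold, and lost its call with pairs summed (edgeR adjusted p = 0.0631). Hsp90b1, Calr, Canx and Pdia6 carry the element too. Their values are not given here, so the genes named do not show how its carriers moved as a set.

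Markers of cell types gave these values beside the changes above. Of 11 conventional DC markers 7 rose and 2 fell, with a summed level of 2410 to 2710 CPM in treated and 2200 to 2490 CPM in untreated KO cells. Xcr1, a chemokine receptor of cross-presenting DCs, rose 3.62-fold at 1.14 to 1.77 CPM with zymosan and 0.334 to 0.430 CPM untreated. The plasmacytoid DC list summed to 577 to 644 CPM with zymosan and 171 to 202 CPM untreated. Most of that was Bst2, an interferon-induced gene, at 471 to 538 CPM with zymosan and 101 to 129 CPM untreated, while Siglech, which defines these cells, was at or below 0.0678 CPM in every KO library. Macrophage and monocyte markers divided, with 7 of 16 higher and 7 lower, and Cd163, a scavenger receptor, fell 4.08-fold at 0.0798 to 0.249 CPM with zymosan and 0.433 to 0.859 CPM untreated. Neutrophil markers summed to 1770 to 2220 CPM with zymosan and 2030 to 2400 CPM untreated; none of 11 rose and 2 fell, Cxcr2 by 1.67-fold. Eosinophil markers (48.2 to 62.3 CPM with zymosan, 49.0 to 58.7 CPM untreated) and mast cell and basophil markers (43.3 to 59.4 CPM with zymosan, 36.7 to 47.8 CPM untreated) overlapped. T and NK cell markers stayed under 0.40 CPM and B cell markers under 2.7 CPM in all KO libraries. The part of the markers in the changes above was not tested.

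The response of KO cells was then set against that of WT cells, which share no library with it. The cultures also differed in markers of another cell type. Eosinophil markers summed to 48.2 to 62.3 CPM in KO and 938 to 1270 CPM in WT cells with zymosan, and to 49.0 to 58.7 CPM in KO and 835 to 1120 CPM in WT cells untreated. Prg2, which encodes major basic protein of eosinophil granules, was at 6.65 to 8.85 CPM in KO and 571 to 876 CPM in WT cells with zymosan. Of 8 tested, 7 were lower in KO than in WT cells both with zymosan and untreated (11.4% and 5.64% of all genes were), and none had a called difference in response. Of 11 neutrophil markers, 5 were lower in KO in either state, and none had a called difference in response. The part of these markers in the differences below was not tested. Of the genes called in KO cells, 8784 were called in the same direction in WT cells, 92.7% of the KO calls and 88.2% of the WT calls (70.2% of all genes were called in WT cells), and 5 were called in opposite directions. A test of the difference itself (the log2 response in KO minus that in WT cells) called 258 of 14188 genes (1.82%), 138 with a higher value in KO (0.973%) and 120 with a lower one (0.846%). In 239 of the 258 the KO response was nearer to 0: 103 genes were raised in both genotypes and raised less in KO, and 129 were lowered in both and lowered less in KO. More generally, of 1968 genes past 2-fold in KO and called in the same direction in both, 1487 moved less in KO than in WT cells. The number of called genes depends on how the replicates are treated. With the replicate number as a block within genotype it was 292 higher and 298 lower, and with pairs of replicates summed none was called (edgeR, lowest adjusted p 0.159, 823 genes at an unadjusted p under 0.05). DESeq2 called 229 higher and 201 lower. Without replicate 2 of the zymosan-treated KO cells it was 69 higher and 56 lower, and without replicate 1 of them 91 and 63; without replicate 2 of the zymosan-treated WT cells 102 and 78. Of the 258, 75 were also called both in replicates 1 and 2 alone and in 3 and 4 alone. Replicates 1 and 2 alone called 1206 genes and 3 and 4 alone 192; 105 were called in both with the same direction and 2 in opposite ones, in all 8.9% of the first list and 55.7% of the second.

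**Figure D3:**
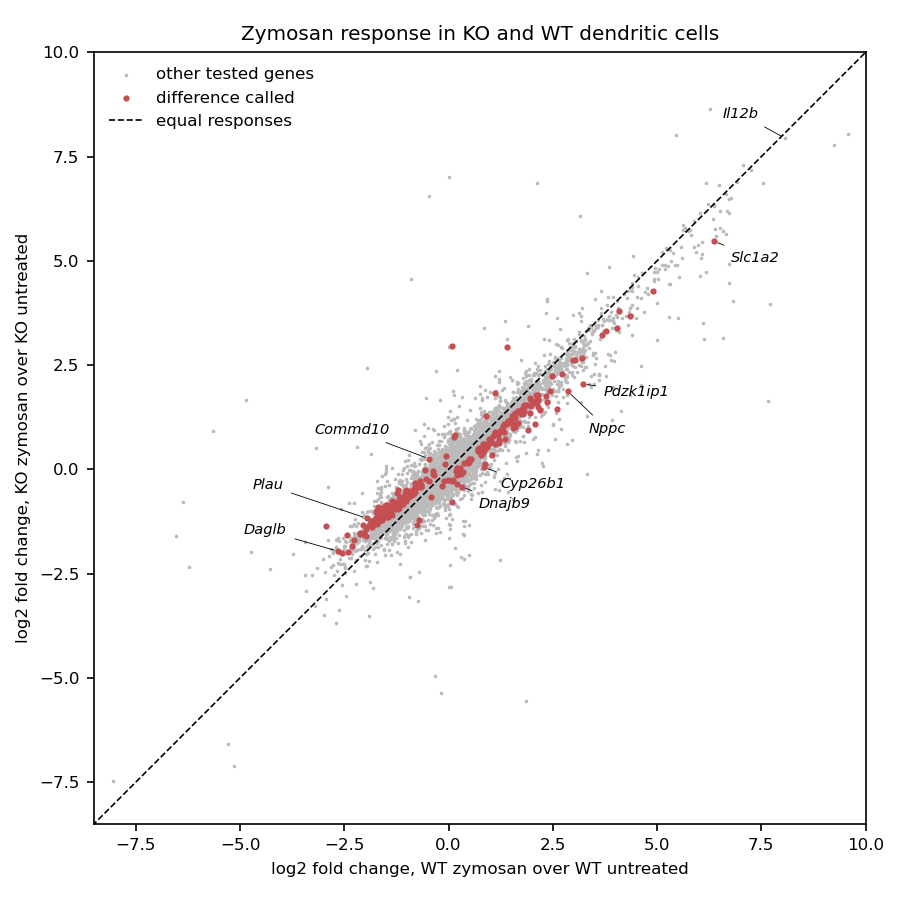
Log2 fold change with zymosan in KO cells (y axis) and in WT cells (x axis) for 14188 genes. The 258 genes with a called difference (red) lie mostly on the side of the dashed line nearer to 0 on the KO axis; named genes include Dnajb9 and Cyp26b1, raised in WT cells and not in KO cells.

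Of the 38 XBP1s targets 3 were called in this test, Dnajb9, Creld2 and Spcs2, all lower in KO, where 0.846% of all genes were. In 16 fits that each left out 1 library, Dnajb9 kept its call in 16 and Creld2 in 5 (edgeR adjusted p up to 0.0968). Spcs2 was not followed in these fits. Dnajb9 had 5.73 to 7.70 CPM in zymosan-treated and 7.90 to 11.0 CPM in untreated KO cells, against 29.2 to 32.2 CPM in zymosan-treated and 23.5 to 26.2 CPM in untreated WT cells. It fell in KO (log2 -0.42) and rose in WT cells (log2 0.32), a difference of -0.74 ± 0.12 (SE, edgeR adjusted p = 0.00285). Creb3l2, a membrane-bound transcription factor of the ER that is not in the target list, had 0.813 to 1.31 CPM in zymosan-treated and 1.49 to 2.54 CPM in untreated KO cells, against 18.8 to 20.1 CPM and 16.2 to 20.04 CPM in the corresponding WT cells. The difference of -0.88 ± 0.18 (edgeR adjusted p = 0.00866) rests on a gene that was low in every KO library. In KO cells 10 of the 38 targets rose and 15 fell, as above, and in WT cells 16 rose and 8 fell, where 34.3% and 35.9% of all genes did. That contrast of counts was not tested.

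Cyp26b1, which breaks down retinoic acid, had 11.3, 11.3, 11.2 and 13.2 CPM in zymosan-treated and 11.3, 10.9, 11.1 and 12.3 CPM in untreated KO cells. WT cells had 9.69, 7.31, 8.87 and 9.20 CPM with zymosan and 4.69, 4.34, 5.56 and 4.92 CPM untreated. So the KO cells already lay above the treated WT cells at rest, and the responses differed by -0.80 ± 0.12 (edgeR adjusted p = 0.000976). Slc1a2, a glutamate transporter, rose 44.4-fold in KO cells and had 40.2 to 47.01 CPM in treated KO cells, against 70.2 to 77.3 CPM in treated WT cells. Untreated cells had 0.826 to 1.08 CPM in KO and 0.670 to 1.15 CPM in WT, and the responses differed by -0.89 ± 0.15. Nppc, a natriuretic peptide, and Pdzk1ip1 also rose less in KO, by -0.99 ± 0.17 and -1.17 ± 0.24 on the log2 scale. For both of these the untreated KO libraries were higher than the untreated WT ones.

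On the side of weaker falls, Daglb, a diacylglycerol lipase that supplies arachidonic acid, had 9.96 to 11.3 CPM in zymosan-treated and 39.3 to 41.9 CPM in untreated KO cells. WT cells had 5.43 to 7.12 CPM with zymosan and 35.1 to 44.6 CPM untreated, so the untreated levels overlapped and the treated ones did not (difference 0.70 ± 0.11, edgeR adjusted p = 0.00228). Plau, the urokinase, fell 2.26-fold in KO cells and had 87.9 to 111 CPM in treated KO cells, against 44.1 to 70.0 CPM in treated WT cells (difference 0.79 ± 0.16). The mitotic genes Plk1 and Cenpf and Ctps, which makes CTP, fell less in KO as well, with differences of 0.79, 0.76 and 0.71. Without replicate 2 of the zymosan-treated KO cells the calls of Plk1 (edgeR adjusted p = 0.0565) and Ctps (0.0758) were lost. Of 22 replication and mitosis genes 4 were called, all higher in KO, where 0.973% of all genes were. In 16 fits that each left out 1 library, Mcm6 kept its call in 16, Plk1 in 15 and Ccnb1 in 10. The other called member was not followed in these fits. Myc had 19.9 to 20.9 CPM in treated KO cells and 13.0 to 15.1 CPM in treated WT cells. Untreated cells had 36.1 to 38.3 CPM in KO and 37.5 to 40.5 CPM in WT (difference 0.62 ± 0.06, edgeR adjusted p = 3.2e-06). Commd10, a member of the COMMD family of copper and trafficking proteins, moved in opposite directions, log2 0.25 in KO and -0.46 in WT cells (edgeR adjusted p of the difference 8.92e-07), and it was already higher in untreated KO than in untreated WT cells.

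Of the prostaglandin genes, 2 responded differently by genotype. Ptgs1 fell less in KO: the treated libraries had 102, 104, 85.6 and 84.9 CPM in KO and 70.7, 67.4, 62.4 and 61.9 CPM in WT cells, with 221 to 241 CPM in untreated KO and 210 to 233 CPM in untreated WT cells. The difference was 0.46 ± 0.09 (edgeR adjusted p = 0.00866). Pla2g4a rose less in KO, with 117 to 132 CPM in treated KO and 150 to 158 CPM in treated WT cells (difference -0.35 ± 0.08, edgeR adjusted p = 0.0209); without replicate 1 of the zymosan-treated KO cells its adjusted p was 0.0534. For Ptgs2 the treated libraries did not overlap, with 1174 to 1414 CPM in KO and 1456 to 1654 CPM in WT cells, but the difference of the responses was not called (-0.26 ± 0.15, edgeR adjusted p = 0.492). That of Ptges was not called either (-0.30 ± 0.10, edgeR adjusted p = 0.147). A p above the threshold does not show that the responses are alike.

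Of the immune lists, those with called members were NF-κB factors and inhibitors (3 of 19), immediate early factors and phosphatases (3 of 22), zymosan receptors and signalling (2 of 20), interferon-stimulated genes (2 of 27), co-stimulation and maturation (2 of 18), arginine and nitric oxide metabolism (2 of 9), Toll-like receptors (1 of 11, Tlr1 again) and cytokines (1 of 21), beside 1.82% of all genes. All of these had a lower value in KO except for Myc. Tlr1 rose less in KO, with 25.6 to 28.2 CPM in treated and 8.59 to 9.42 CPM in untreated KO cells, against 30.8 to 34.3 CPM in treated and 7.11 to 7.68 CPM in untreated WT cells (difference -0.50 ± 0.07, edgeR adjusted p = 0.000238). Socs3 (-0.43), Dusp1, a MAP kinase phosphatase (-0.56), Pfkfb3 (-0.55), Nupr1 (-0.59) and Sod2, the mitochondrial superoxide dismutase (-0.30), rose less in KO too. The called cytokine gene was Il1b, which kept its call in 4 of 16 fits that left out 1 library (edgeR adjusted p up to 0.0903). None of 19 chemokine, 12 MHC class II and 13 MHC class I genes was called. The differences of Il12b (-0.14 ± 0.15) and Il6 (-0.02 ± 0.16) were small beside rises of over 100-fold in KO. Of 36 named genes with a called difference, 21 kept the call in each of 16 fits that left out 1 library. Spcs2 was not among the 36.

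**Figure D4:**
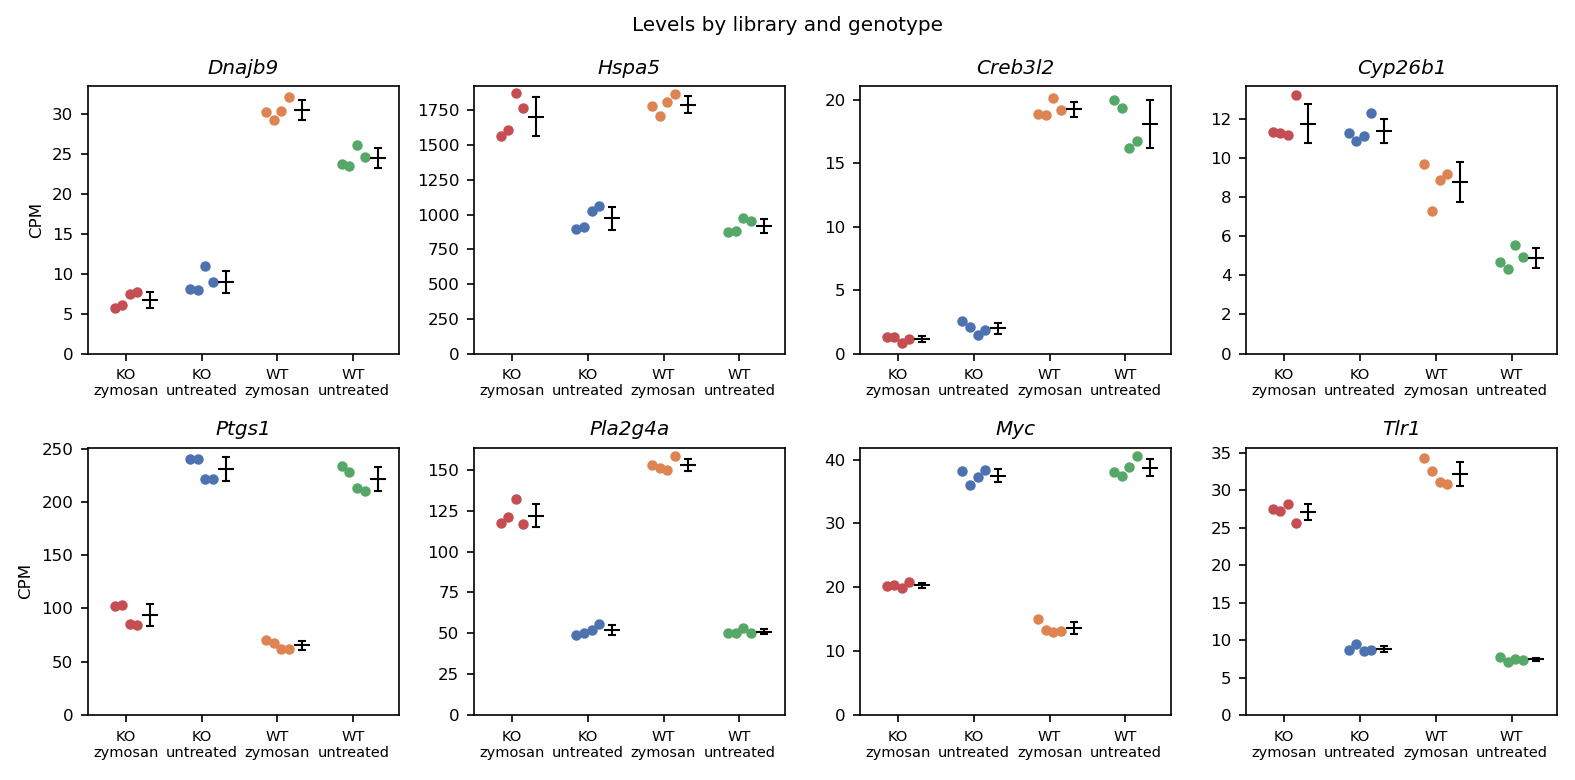
CPM in each library of zymosan-treated KO, untreated KO, zymosan-treated WT and untreated WT cells for 8 genes, with mean and SD in black. Dnajb9 and Creb3l2 are low in all KO libraries, the treated WT libraries of Cyp26b1 lie above the untreated WT ones, and the treated KO libraries of Ptgs1 and Myc lie above the treated WT libraries.

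Within KO cells zymosan was also set directly against LPS, the bacterial ligand of TLR4. Of 14188 genes 6059 (42.7%) differed, 3227 higher with zymosan (22.7%) and 2832 lower (20%), with 231 higher (1.63%) and 181 lower (1.28%) by over 2-fold. Interferon-stimulated genes were lower with zymosan in 25 of 27 cases, with a median log2 difference of -0.64, and class I genes in 12 of 13 cases (median -0.38). Oasl1 had 318 to 375 CPM with zymosan and 560 to 638 CPM with LPS. Cxcl10 had 720 to 882 CPM with zymosan and 1205 to 1675 CPM with LPS (log2 -0.88 ± 0.19, edgeR adjusted p = 0.000453). Cytokines split, with 11 of 21 higher and 5 lower. Il12b had 482, 491, 579 and 513 CPM with zymosan and 1920, 1994, 1867 and 1865 CPM with LPS, a 3.70-fold difference with no overlap (log2 -1.89 ± 0.08, edgeR adjusted p = 5.37e-15). Tnf, by contrast, was higher with zymosan (log2 1.36 ± 0.07), and so was Csf3, the granulocyte growth factor G-CSF, with 11.9, 12.4, 15.5 and 17.3 CPM with zymosan and 2.43, 2.70, 2.78 and 3.08 CPM with LPS. Cxcl1 had 112 to 150 CPM with zymosan and 27.7 to 35.3 CPM with LPS (log2 2.05 ± 0.11).

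**Figure D5:**
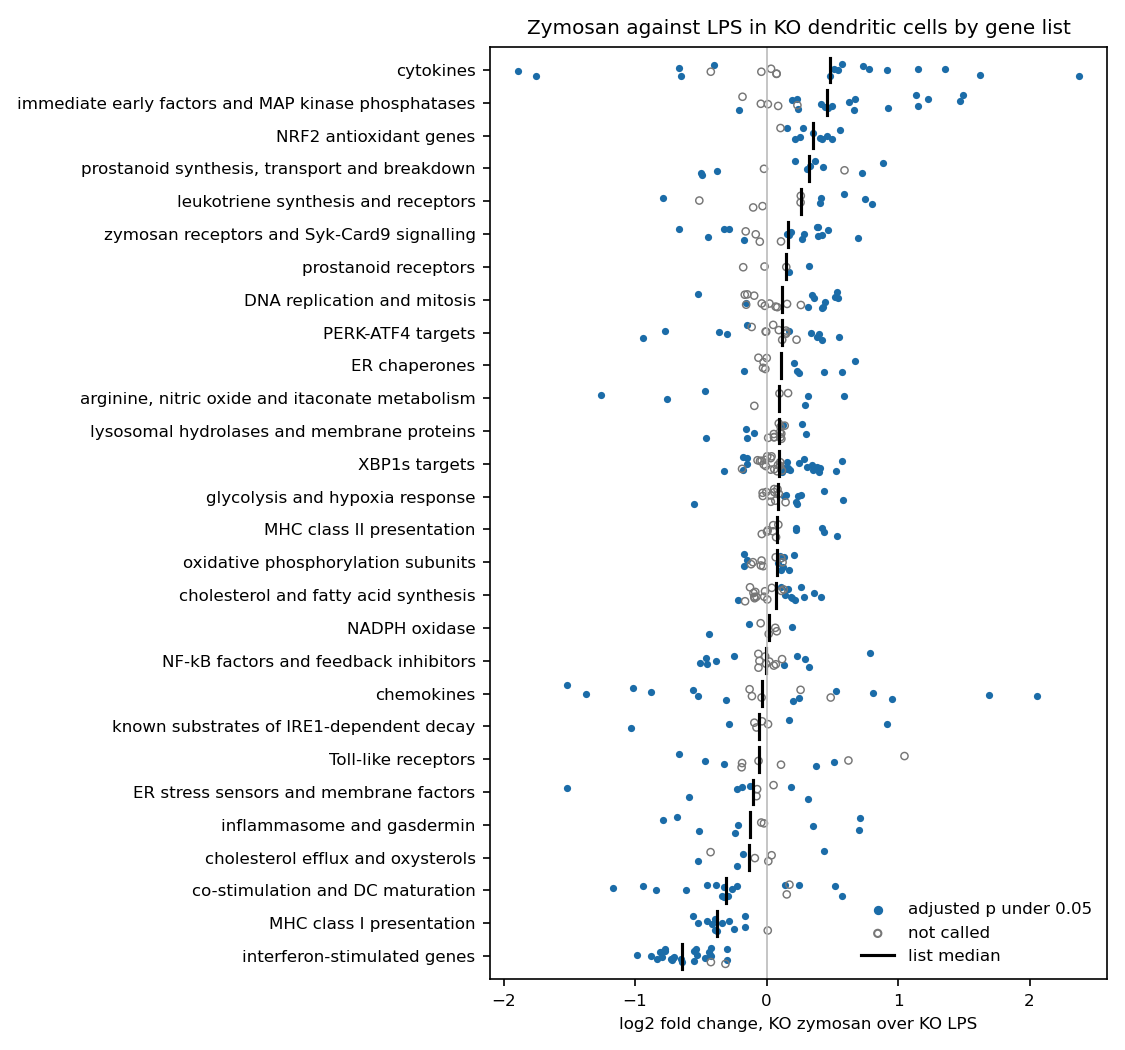
Log2 fold change of KO zymosan over KO LPS for each tested gene (point) of 28 gene lists, ordered by list median (black bar); filled points were called. Interferon-stimulated genes (median -0.64) lie lowest and cytokines (median 0.48) highest.

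Immediate early factors and phosphatases were higher with zymosan in 16 of 22 cases and lower in 1, and NRF2 antioxidant genes were higher in 10 of 11. Ptgs2 was higher with zymosan, with 1174, 1185, 1414 and 1193 CPM against 626, 637, 715 and 708 CPM with LPS (log2 0.89 ± 0.10, edgeR adjusted p = 8.13e-08). Ptgs1 was higher too (log2 0.37 ± 0.07) and Pla2g4a lower (log2 -0.38 ± 0.06). Ptges had 99.95, 98.0, 79.8 and 78.3 CPM with zymosan and 75.6 to 77.4 CPM with LPS (log2 0.22 ± 0.07, edgeR adjusted p = 0.0103). That call was lost without replicate 1 (adjusted p 0.0634) or replicate 2 (0.0555) of the zymosan-treated cells. Of the 6 highest differences, Zranb3, Prune2, Ckb and Galnt9 were 1.87 to 2.18 higher on the log2 scale with zymosan, and all had their highest levels in untreated cells. Ckb, the brain-type creatine kinase, had 18.3 to 27.1 CPM with zymosan, 4.58 to 6.37 CPM with LPS and 67.4 to 78.6 CPM untreated. At the other end, Ccr4, a chemokine receptor, had 4.52 to 6.27 CPM with zymosan, 28.7 to 31.5 CPM with LPS and 0.746 to 1.23 CPM untreated. U90926, Thbs4 (a thrombospondin), Clic5 (a chloride channel protein) and the cytokine gene Il18 were also lower with zymosan than with LPS, by 3.07, 2.54, 1.98 and 1.75 on the log2 scale.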

How the data were processed

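Gene counts of 24 libraries, 4 in each of 6 groups, were used as deposited by the authors: whole-number counts per Ensembl gene. The submitters' processing notes name build mm10 and the tools Bowtie2, DESeq2 and RSEM 1.2.31, whose roles are not given in the sources used here. RSEM shares out reads that fit several genes, so near-identical copies such as members of the Ifit, Oas and H2 families are less certain. Strandedness of the libraries is not given in the sources used here.

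GENCODE M21 (GRCm38) named 37570 of 38887 identifiers (96.6%), and promoter windows came from RefSeq. Genes were filtered with filterByExpr (14188 left) and counts were scaled by TMM (factors 0.88 to 1.19). They were fitted with edgeR 4.0.16 in R 4.3.3, with 6 group means over all 24 libraries and the quasi-likelihood test. The factors split by treatment, with 1.14 to 1.19 in untreated and 0.88 to 0.983 in treated libraries. Small fold changes, and the median log2 fold change near 0, depend on this scaling. With DESeq2 size factors in edgeR the median of the KO response was -0.015. P-values were adjusted by Benjamini-Hochberg over all tested genes and called under 0.05. CPM and log2 fold changes were computed here. The procedure was tested on simulated independent libraries with known changes between zymosan-treated and untreated KO cells. That simulation held no replicate pairs and did not cover the difference between KO and WT responses. Ratios for very low counts have exact 95% intervals, and a group at 0 was set at 3 counts over the group; both cover counting error only. These ratios were scaled to total counts without the TMM factors, and are lower than TMM-scaled ratios would be.

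The comparisons, the 28 pathway lists, the 10 marker lists and the promoters shown were chosen with earlier results of these data known. Named genes are the prostaglandin genes, Ern1 and Xbp1, up to 3 called members of a pathway list and 1 of a marker list with the largest change, the 8 largest rises and falls, and, in the other comparisons, the 6 largest differences each way and called members of the lists. Others (Il12a, Il23a, Tnf, Tlr2, Clec7a, Syk, Card9, Mki67 and further ER and receptor genes) were named after their values were seen, to complete a family or function. Il36g and Gbp5 had no identifier in the table. Same-numbered treated and untreated libraries deviated together (correlation of deviations 0.125 to 0.205 in KO and 0.151 to 0.247 in WT, all 4 pairs in each), so the replicate number was also fitted as a block. Differently numbered libraries within replicates 1 and 2 or within 3 and 4 deviated together to a like degree (0.14 to 0.296 in KO and 0.089 to 0.175 in WT), so the shared deviation goes with these pairs and not with the number alone. Alternatives were DESeq2 1.42.0, its size factors, no filter on low counts, a fit of only the groups compared, the replicate block, pairs of replicates summed, and each library left out; each pair of replicates alone was added after seeing the data.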

Additional observations from a re-analysis of the deposited data

Results flagged for a closer look

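In 13 cases the highest or lowest of 4 KO libraries stood far from the other 3 for a named gene, out of 278 groups of 4 looked at; chance alone gives about 1 in 20. Among zymosan-treated libraries the highest values were Ptgs2 at 1414 CPM, Eif2ak3 at 11.3 CPM, Hspa13 at 45.4 CPM, Daglb at 11.3 CPM and Cyp26b1 at 13.2 CPM, and the lowest were Rrm2 at 4.95 CPM and Manf at 73.2 CPM. Among untreated libraries the highest values were Tlr1 at 9.42 CPM, Tapbp at 289 CPM, Hk2 at 336 CPM, Manf at 72.3 CPM and U90926 at 0.0590 CPM, and the lowest was Mcm6 at 44.9 CPM. Leaving out the library turned the direction of the zymosan response for Cyp26b1, whose response was not called, but for none of the other genes recomputed. The zymosan response of U90926 was not recomputed in this way.

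The log2 response to zymosan differed between KO and WT cells, by the test of the difference in edgeR at an adjusted p under 0.05, for 36 named genes; values are KO minus WT. Spcs2, also called in this test, is not among these 36. Negative values were Pdzk1ip1 -1.17, Nppc -0.99, Slc1a2 -0.89, Creb3l2 -0.88, Cyp26b1 -0.80, Dusp2 -0.74, Dnajb9 -0.74, Gbp3 -0.68, Gbp2 -0.65, Nupr1 -0.59, Dusp1 -0.56, Pfkfb3 -0.55, Tlr1 -0.50, Nos2 -0.44, Cd14 -0.43, Socs3 -0.43, Pla2g4a -0.35, Hif1a -0.34, Manf -0.31, Sod2 -0.30, Il1b -0.29, Hmox1 -0.26 and Creld2 -0.23. Positive values were Plk1 0.79, Plau 0.79, Cenpf 0.76, Ctps 0.71, Commd10 0.71, Daglb 0.70, Myc 0.62, Pald1 0.54, Ccnb1 0.52, Ptgs1 0.46, Cdh1 0.44, Fasn 0.41 and Mcm6 0.34.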

How the results depend on the processing

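The count of genes called in the zymosan response of KO cells was 3871 to 4647 higher and 4247 to 5181 lower over all alternatives run, and that of zymosan against LPS was within 1.5 times of 3227 and 2832 except with pairs of replicates summed (1969 higher, 1582 lower). The count for the difference between KO and WT responses, 138 higher and 120 lower, moved most. It was 229 and 201 with DESeq2, 292 and 298 with the replicate block, 0 and 0 with pairs summed, 107 and 47 with only the groups compared, 558 and 648 with replicates 1 and 2 alone, and 74 and 118 with replicates 3 and 4 alone. Leaving out 1 library gave 69 to 195 higher and 56 to 155 lower. The cause was not tested, except that summing leaves fewer samples. Of the 258 genes, 256 were also called with the replicate block, which changed no other call of a named gene; it added 1 raised neutrophil marker to 0. Same-numbered zymosan and LPS libraries of KO cells deviated together less than same-numbered zymosan and untreated ones (correlations 0.032 to 0.088, against 0.125 to 0.205). The direction turned in 2 cases, both of uncalled values: Cyp26b1 in KO (-0.018 without replicate 4 of the zymosan-treated cells, and up to 0.082 without the other libraries) and the difference of Ptgs2 (0.12 in replicates 1 and 2 alone). Depth limits genes of few counts, such as Ifnb1, Il10 and Tlr5, whose ratios carry wide counting intervals.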

Other observations

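Phagocyte and stress-protection genes not described above also changed in KO cells with zymosan. Of 7 subunits of the phagocyte NADPH oxidase, which makes superoxide against engulfed particles, 5 rose and 1 fell (median log2 fold change 0.22). Cybb, its catalytic subunit gp91phox, had 2625, 2663, 2963 and 2724 CPM in treated and 1268, 1269, 1415 and 1515 CPM in untreated KO cells, a 2.01-fold rise with no overlap. The cytosolic subunits Ncf1 and Ncf4 rose 1.31-fold and 1.28-fold. Of 18 lysosomal genes 10 rose and 5 fell, and with pairs of replicates summed 1 fell. Npc2, a lysosomal cholesterol carrier, rose 1.97-fold (1308 to 1498 CPM with zymosan, 674 to 751 CPM untreated), the membrane protein gene Lamp2 rose 1.74-fold and the cathepsin gene Ctsl rose 1.63-fold.

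Of 11 targets of NRF2, the factor of the antioxidant response, 8 rose and 3 fell (median log2 0.28). Sqstm1, the autophagy receptor p62, rose 2.10-fold, the haem oxygenase gene Hmox1 rose 1.74-fold (1322 to 1441 CPM with zymosan, 773 to 794 CPM untreated) and the peroxiredoxin gene Prdx1 rose 1.66-fold. Among 10 inflammasome and gasdermin genes 9 rose and 1 fell (median log2 0.86). Casp4, which encodes the mouse sensor caspase of intracellular LPS, had 80.0, 80.2, 105 and 98.8 CPM in treated and 11.8, 11.8, 14.4 and 14.1 CPM in untreated KO cells, a 6.98-fold rise. Casp1, which cleaves pro-interleukin 1β, rose 3.96-fold. Nlrp1b, an inflammasome sensor, fell 2.35-fold, with 2.20 to 3.02 CPM in treated and 5.08 to 6.59 CPM in untreated KO cells. Of 8 known substrates of IRE1-dependent RNA decay 3 rose and 1 fell with zymosan in KO cells (median log2 0.06). Of all genes, 31.6% were called higher and 35.2% lower, and so small a list was not tested against those shares. No member fell with pairs of replicates summed.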
